A study of Mus musculus with 6 samples.

Results

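Glycosyltransferase genes of the sialyl, fucosyl, galactosyl and branching families were examined in mouse CD8+ T cells that were labelled Dot1l knockout or wild type. Members were genes whose symbol begins with St3gal, St6gal, St8sia, Fut followed by a digit, B4galt, B3galt, B3gnt, Gcnt, Galnt or Mgat and whose probe set names exactly 1 gene. The rule found 84 of the 22180 genes measured. Where a gene had several probe sets, the brightest by its mean across the 6 arrays stood for the gene, so the level chose the probe set and the comparison between groups did not. One of the 84, Fut4-ps1, is named as a pseudogene.

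The study had 3 arrays labelled Dot1l knockout, made from mice in which a Dot1l flox/flox allele was combined with CD4-Cre, and 3 arrays labelled wild type, all on the C57BL/6 strain. CD4-Cre is switched on in thymocytes before the CD4 and CD8 lineages part, so in such a cross the gene is also deleted in CD4 T cells. An EasySep kit, which isolates cells magnetically, was used to take CD8+ T cells from spleen and peripheral lymph nodes. Age, sex, the alleles carried by the wild type mice and the number of animals behind each array are not given in the labels, so the spread that p-values rest on is that of these arrays and could be technical.

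Sugars on surface proteins and lipids are built in the Golgi, where each of these enzymes adds 1 kind of sugar in 1 kind of linkage. Galnt enzymes start O-glycans on serine and threonine, Gcnt enzymes branch them, and Mgat enzymes branch N-glycans. Most B4galt, B3galt and B3gnt enzymes lengthen the arms, and most Fut and St enzymes cap them with fucose or sialic acid. Fut8 instead adds core fucose to N-glycans, and B4galt7 and B3galt6 add galactose to the proteoglycan linker. In T cells these caps and branches decide which selectins, galectins and Siglecs can bind, and they change with activation and memory formation.

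Values are log2 expression values from robust multi-array averaging (RMA), so a difference of 1 is a 2-fold change. A level of 3.83, the 95th percentile of 1394 olfactory and vomeronasal receptor genes, served as a guide to background. All differences are Dot1l knockout minus wild type, with standard error (SE), n = 3 arrays per group, and p-values come from limma with Benjamini-Hochberg adjustment over all 22180 genes. Genes under an adjusted p of 0.05 are said to have passed. A gene is called below the guide in a group where its mean over the 3 arrays was. Dot1l itself read 7.31, 7.26 and 7.33 in knockout-labelled arrays and 7.46, 6.96 and 7.18 in wild type arrays (0.10, SE 0.13, adjusted p = 0.765), so this probe set, which may lie outside the deleted part, does not check the labels. Directions therefore refer to arrays as labelled. Correlations between arrays over all genes were 0.994 to 0.995 among the knockout-labelled ones, 0.989 to 0.993 among the wild type ones and 0.984 to 0.987 across genotypes. The T cell genes Cd3d, Cd3e, Cd3g, Cd8a, Cd8b1 and Zap70 were all above the guide, and 0 of these 6 passed in either direction.

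Of the 84 genes 12 passed, 8 higher and 4 lower in knockout-labelled arrays. That is 14.3% of the members, against 5.5% of all genes. For rises the shares were 9.52% and 4.3%, and for falls 4.76% and 1.2%. The higher genes were St8sia6, Fut8, B4galt5, St3gal6, Gcnt4, Galnt3, B3gnt5 and St6galnac4, and the lower ones St6gal1, Galnt6, Galnt9 and St8sia1. The median difference of all 84 was -0.0021, beside -0.012 for all genes, and 41 of the 84 differences were above 0. The 39 members below the guide in both groups had a median of -0.054, with 12 above 0. The other 45 had a median of 0.25, with 29 above 0. Medians of all genes split this way were not taken. The members were chosen with earlier results of these data known, so no p is given for the set. Each of the 12 had 3 knockout-labelled values on one side of the 3 wild type values. Their calls were made on these same values, so this is no further support. Groups did not overlap for 28 members (33.3%), against 23.5% of all genes. These are bulk samples, in which fewer cells with a transcript and less transcript per cell cannot be told apart.

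The counts depended on scaling and on single arrays. With another quantile normalization 5 members were higher and 5 lower, and with median centring 5 were higher and 4 lower, while higher calls made up 78.2% of calls over all genes as deposited, 57.1% after quantile normalization and 68.8% after centring. St8sia6, Fut8, B4galt5, St3gal6, Gcnt4 and the 4 lower genes kept their calls under both. Without knockout replicate 1, 2 or 3 the numbers higher and lower were 5 and 3, 4 and 3, and 4 and 2, and without wild type replicate 3 they were 5 and 2. St8sia6, Fut8, B4galt5, St3gal6, St6gal1 and Galnt6 passed in all 6 fits that left out 1 array, and the other 6 did not. Probe sets with no gene name read higher in the same arrays, with array medians of 3.55 to 3.63 in knockout-labelled arrays and 3.34 to 3.49 in wild type arrays. With that median as a covariate St8sia6 and Fut8 passed, and the other 10 did not. All 12 kept their direction, but most differences of these 10 moved. Rises grew from 0.81 to 1.35 for Galnt3, from 0.56 to 0.98 for St6galnac4 and from 0.67 to 0.85 for St3gal6. Falls grew from -0.80 to -0.998 for Galnt6, from -0.64 to -0.76 for Galnt9 and from -0.52 to -0.68 for St8sia1. B4galt5 stayed at 1.04, and St6gal1 went from -0.99 to -0.86. Those of Gcnt4 and B3gnt5 shrank from 0.64 to 0.38 and from 0.46 to 0.28.

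**Figure D1:**
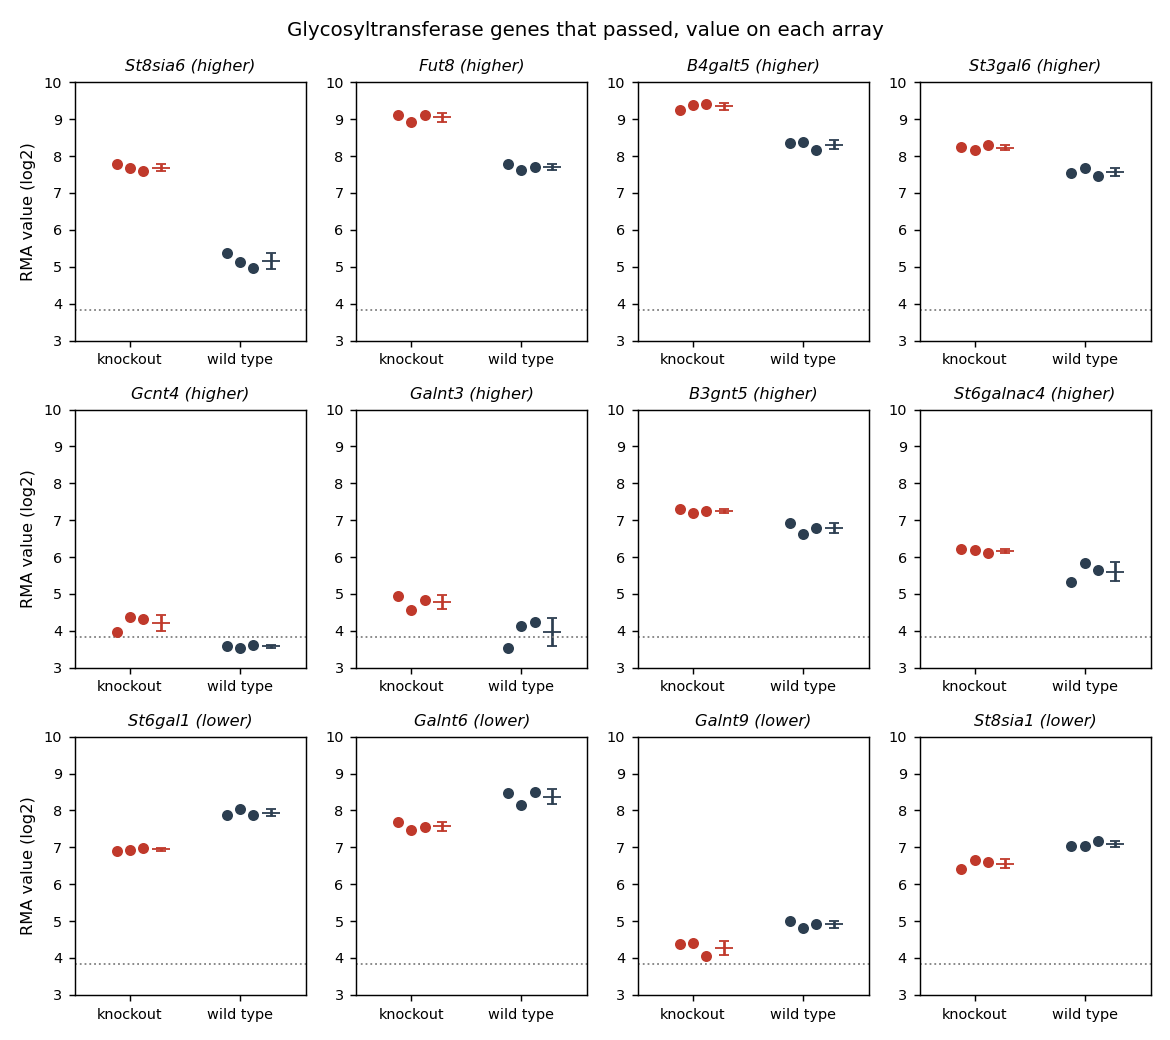
RMA values (log2, y axis) of the 12 genes that passed, with 1 point per array, knockout-labelled arrays in red at the left and wild type arrays in dark blue at the right of each panel. Crosses with bars are the mean and SD of 3 arrays and the dotted line is the background guide of 3.83. In each panel the 2 sets of points do not overlap, and the gap is widest for St8sia6.

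The sialyltransferases, which add the terminal sialic acid, moved in both directions. Of 20 measured members 3 passed as higher and 2 as lower, with a median difference of -0.0032. St8sia6, which attaches sialic acid to another sialic acid in alpha2,8 linkage, mainly on O-glycans, read 7.78, 7.69 and 7.58 in knockout-labelled arrays and 5.39, 5.13 and 4.96 in wild type arrays. The lowest knockout-labelled value lay above the highest wild type value by more than either group's spread. The difference was 2.53 (SE 0.13, 95% interval 2.24 to 2.82), a 5.76-fold rise with an adjusted p of 1.73e-05. St8sia1, the GD3 ganglioside synthase of the same family, went the other way. It read 6.42, 6.64 and 6.61 in knockout-labelled arrays and 7.04, 7.03 and 7.17 in wild type arrays, a fall of 1.44-fold (difference -0.52, SE 0.11, adjusted p = 0.0218). Its call was lost without any 1 of the knockout replicates (adjusted p = 0.0929, 0.0567 and 0.0733 without replicate 1, 2 and 3) and without wild type replicate 3 (0.082). The polysialic acid synthase gene St8sia4 read 8.79, 8.63 and 8.57 in knockout-labelled arrays and 8.23, 8.26 and 8.28 in wild type arrays. Those groups did not overlap, and its difference of 0.41 (SE 0.10, adjusted p = 0.0528) did not pass. It passed once genes under the 25th or the 50th percentile of mean level were left out (adjusted p = 0.043 and 0.0242) and with trend and robust fitting (0.012). It did not pass after quantile normalization (0.37, adjusted p = 0.0895) or median centring (0.36, adjusted p = 0.105), nor with any 1 array left out. St8sia2, St8sia3 and St8sia5 were below the guide in both groups.

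Promoter windows from RefSeq (GRCm38.p6, 250 bases before to 50 after a gene start) are shown for 4 genes that passed and have 1 annotated start each, chosen to set the rising and the falling St8sia gene beside each other and beside 2 galactose-chain enzymes that rose. Capitals mark matches to the GC box, GGGCGG on either strand, and the matches in B4galt5 partly overlap each other. The windows lie at chr2:13793471-13793770 on the minus strand for St8sia6, chr6:142964403-142964702 on the minus strand for St8sia1, chr2:167349129-167349428 on the minus strand for B4galt5 and chr16:19759984-19760283 on the plus strand for B3gnt5.
St8sia6: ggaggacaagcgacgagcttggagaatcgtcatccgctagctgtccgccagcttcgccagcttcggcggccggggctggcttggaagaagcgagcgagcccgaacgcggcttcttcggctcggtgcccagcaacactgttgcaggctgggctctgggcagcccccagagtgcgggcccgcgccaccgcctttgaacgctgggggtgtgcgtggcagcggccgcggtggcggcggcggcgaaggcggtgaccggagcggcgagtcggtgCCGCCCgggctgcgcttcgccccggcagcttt
St8sia1: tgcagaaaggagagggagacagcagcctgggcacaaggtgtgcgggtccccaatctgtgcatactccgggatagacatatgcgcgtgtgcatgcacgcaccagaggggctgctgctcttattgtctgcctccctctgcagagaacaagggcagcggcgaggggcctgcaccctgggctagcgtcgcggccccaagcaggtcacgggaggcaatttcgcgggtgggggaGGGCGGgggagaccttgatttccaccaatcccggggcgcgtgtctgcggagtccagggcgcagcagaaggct
B4galt5: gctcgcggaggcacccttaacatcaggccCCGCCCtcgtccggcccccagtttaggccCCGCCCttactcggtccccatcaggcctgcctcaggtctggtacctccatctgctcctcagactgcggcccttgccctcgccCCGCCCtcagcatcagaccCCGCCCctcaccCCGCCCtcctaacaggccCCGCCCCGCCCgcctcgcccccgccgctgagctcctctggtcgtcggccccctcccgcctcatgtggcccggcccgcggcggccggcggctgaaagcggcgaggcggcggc
B3gnt5: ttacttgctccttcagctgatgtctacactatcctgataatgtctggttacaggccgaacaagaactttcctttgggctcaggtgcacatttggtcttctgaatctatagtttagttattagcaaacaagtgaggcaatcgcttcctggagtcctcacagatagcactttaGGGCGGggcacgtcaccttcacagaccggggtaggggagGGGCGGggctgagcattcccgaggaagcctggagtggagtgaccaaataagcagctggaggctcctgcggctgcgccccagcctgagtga
The St8sia6 window held 39 CpG pairs and 1 GC box, and that of St8sia1 19 CpG pairs and 1 GC box. B4galt5 held 31 CpG pairs and 7 GC boxes, and B3gnt5 9 CpG pairs and 2 GC boxes. The window letters thus gave the rising and the falling St8sia gene the same number of GC boxes. RefSeq windows were matched for 62 of the 84 members. A GC box was in 46 of 88 windows of these members (52.3%) and in 35.7% of all 32851 windows. The member windows held a median of 16.5 CpG pairs, against 7 in all windows, and the part of base composition was not tested. The GC box was in 13 of 21 windows of the 12 genes that passed and in 33 of 67 windows of members that did not. The interferon-stimulated response element, searched on both strands as a pair of GAAA runs with any 2 bases between them, was in 0 of these 21 windows, against 3.44% of all windows. The gamma-activated site TTCNNNGAA, the same on both strands, was in 1 of the 21, a window of Gcnt4, against 8.3% of all. Matches are descriptions of letters and do not show binding.

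Enzymes that place sialic acid in alpha2,6 linkage included 1 fall and 1 rise. St6gal1, which caps the galactose of N-glycans and so makes the ligand of the B cell lectin CD22, read 6.91, 6.93 and 6.99 in knockout-labelled arrays and 7.89, 8.04 and 7.87 in wild type arrays. All 3 knockout-labelled values were lower, by 0.99 on average (difference -0.99, SE 0.10, 95% interval -1.22 to -0.77, a 1.99-fold fall, adjusted p = 0.000484). B cells are rich in St6gal1, and B cell markers differed between the same arrays. Of 10 measured markers of a 12-gene list Cd22 (1.29), Ms4a1 (1.13) and Cd79a (0.86) were higher and Ighm (-0.60) was lower in knockout-labelled arrays, while Cr2, Ebf1 and Pax5 were below the guide in both groups. The summed linear level of the 10 was 1577 to 1736 in knockout-labelled arrays and 2124 to 2436 in wild type arrays. Ighm alone made up 80.0% to 90.6% of that sum, and the other 9 summed the other way, to 287 to 347 in knockout-labelled arrays and 200 to 245 in wild type arrays. Their part in the fall of St6gal1 was not tested. St6galnac4, which adds a second sialic acid to a sialylated core 1 O-glycan, read 6.21, 6.18 and 6.11 in knockout-labelled arrays and 5.33, 5.85 and 5.64 in wild type arrays. The spread was wider in the wild type group, and the rise of 0.56 (SE 0.14, adjusted p = 0.0463) was lost without wild type replicate 1 or 3 and without knockout replicate 1, 2 or 3. St6galnac6, which acts on gangliosides, read 4.27, 4.48 and 4.35 in knockout-labelled arrays and 4.24, 4.77 and 4.62 in wild type arrays (-0.18, SE 0.14, adjusted p = 0.588). The other 5 genes of this prefix group had differences between -0.24 and 0.31 and did not pass. St6galnac2, at the lower end, had all 3 knockout-labelled values under the wild type ones, but it was below the guide in both groups.

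Among alpha2,3-sialyltransferases 1 of 6 passed. St3gal6, which caps lactosamine chains of the kind used in sialyl Lewis x selectin ligands, read 8.24, 8.17 and 8.29 in knockout-labelled arrays and 7.53, 7.68 and 7.46 in wild type arrays. The groups stood 0.67 apart (SE 0.10, a 1.59-fold rise, adjusted p = 0.00549). St3gal4, which shares that substrate, read 7.38, 7.08 and 7.19 in knockout-labelled arrays and 6.85, 7.08 and 6.78 in wild type arrays. Those groups met at 7.08, and the difference of 0.32 (SE 0.12, adjusted p = 0.215) did not pass. St3gal1 is the core 1 O-glycan sialyltransferase on which naive CD8 T cells depend for survival in mice. It read 8.35, 8.30 and 8.24 in knockout-labelled arrays and 8.44, 8.45 and 8.33 in wild type arrays (-0.11, SE 0.10, 95% interval -0.33 to 0.11, adjusted p = 0.635). St3gal5, the GM3 synthase that opens the ganglioside series, read 3.94, 3.97 and 3.97 in knockout-labelled arrays and 3.96, 3.88 and 3.20 in wild type arrays. Its groups overlapped near the guide (0.28, SE 0.18, adjusted p = 0.479), and wild type replicate 3 alone was clearly lower. St3gal2 (0.29, adjusted p = 0.271) and St3gal3 (-0.18) did not pass either.

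Fucosyltransferases had 1 gene that passed out of 9. Fut8, the enzyme of core alpha1,6-fucose on N-glycans, including those of the T cell receptor, read 9.11, 8.92 and 9.12 in knockout-labelled arrays and 7.78, 7.63 and 7.69 in wild type arrays. Every knockout-labelled value exceeded every wild type value by over 1 log2 unit. The difference was 1.35 (SE 0.11, 95% interval 1.11 to 1.59, a 2.55-fold rise, adjusted p = 0.000128). Fut7, which completes sialyl Lewis x on selectin ligands of T cells, read 4.27, 3.99 and 3.89 in knockout-labelled arrays and 3.81, 4.15 and 4.19 in wild type arrays. Its groups overlapped (-0.0011, SE 0.14, 95% interval -0.32 to 0.32, adjusted p = 0.999), and its values lay close to the guide. Fut4, the other alpha1,3-fucosyltransferase of leukocytes, averaged 3.68 ± 0.16 in knockout-labelled arrays and 3.78 ± 0.06 in wild type arrays (SD), below the guide in both. Fut11 differed by 0.25 (SE 0.12, adjusted p = 0.334), with overlapping groups. Of the 9 fucosyl members 6 were below it in both groups, so a change in them would not be readable here.

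Of the 20 B4galt, B3galt and B3gnt genes, which build galactose and N-acetylglucosamine chains, 2 passed, both higher. B4galt5, the main lactosylceramide synthase, read 9.24, 9.38 and 9.42 in knockout-labelled arrays and 8.37, 8.39 and 8.16 in wild type arrays. The rise of 1.04 (SE 0.11, 95% interval 0.80 to 1.29) was 2.06-fold with an adjusted p of 0.000658. B4galt6, which shares that activity, was below the guide in both groups (0.22, SE 0.15, adjusted p = 0.503). B4galt1, which puts galactose on N-glycans, read 10.26, 10.20 and 10.14 in knockout-labelled arrays and 10.29, 10.33 and 10.32 in wild type arrays. Its knockout-labelled values were all slightly lower, by an amount that did not pass (-0.11, SE 0.10, adjusted p = 0.618). B3gnt5, which extends lactosylceramide into the lacto series, read 7.29, 7.20 and 7.25 in knockout-labelled arrays and 6.92, 6.64 and 6.79 in wild type arrays. The rise of 0.46 (SE 0.11, adjusted p = 0.038) was 1.38-fold and kept its call in 1 of the 6 fits that left out an array. It lost it under both rescalings (adjusted p = 0.0782 and 0.0677). B3gnt3, an enzyme that extends core 1 O-glycans, read 5.31, 5.22 and 4.99 in knockout-labelled arrays and 4.39, 4.89 and 3.94 in wild type arrays. The wild type values spread over almost 1 log2 unit, and the difference of 0.77 (SE 0.21, adjusted p = 0.0753) passed once wild type replicate 2 was left out (1.01, adjusted p = 0.00986). It also passed with the replicate number as a block (0.0335), with the filter at the 50th percentile (0.0494) and with trend and robust fitting (0.0496). It did not pass after quantile normalization (0.60, adjusted p = 0.219) or median centring (0.72, adjusted p = 0.113), nor without any other array. B3gnt2, which makes polylactosamine, differed by 0.16 (SE 0.12, adjusted p = 0.545) and B3gnt7 by 0.051 (SE 0.14, adjusted p = 0.902), and B3gnt7 was below the guide in both groups. None of the 5 B3galt genes passed, with differences from -0.24 to 0.40. The upper end was B3galt6, which adds a galactose of the proteoglycan linker and read 5.66, 5.49 and 5.80 in knockout-labelled arrays and 5.33, 5.47 and 4.96 in wild type arrays. Its groups just missed overlapping (SE 0.15, adjusted p = 0.187). B4galt3, an N-glycan galactosyltransferase, read 5.50, 5.26 and 5.46 in knockout-labelled arrays and 5.65, 5.63 and 5.71 in wild type arrays (-0.26, SE 0.11, adjusted p = 0.234). It passed as lower after quantile normalization (-0.46, adjusted p = 0.0472) and not as deposited.

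O-glycan initiation showed a rise and 2 falls among 19 Galnt genes. Galnt6 read 7.70, 7.47 and 7.54 in knockout-labelled arrays and 8.47, 8.14 and 8.50 in wild type arrays. It was lower by 1.74-fold (difference -0.80, SE 0.13, 95% interval -1.09 to -0.52, adjusted p = 0.00602). Galnt9 read 4.37, 4.40 and 4.05 in knockout-labelled arrays and 5.004, 4.82 and 4.92 in wild type arrays (-0.64, SE 0.12, adjusted p = 0.0161), and its call was lost without knockout replicate 3 (adjusted p = 0.0663) or wild type replicate 3 (0.058). Galnt3 moved the other way, with 4.93, 4.57 and 4.83 in knockout-labelled arrays and 3.52, 4.13 and 4.23 in wild type arrays. One wild type array was below the guide and 2 were above it, and the rise of 0.81 (SE 0.19, adjusted p = 0.035) was lost without knockout replicate 1, 2 or 3. Galnt1, a broadly used initiator, read 8.85, 8.96 and 8.92 in knockout-labelled arrays and 8.98, 8.97 and 8.86 in wild type arrays (-0.026, SE 0.10, 95% interval -0.25 to 0.19). Galnt4 (0.38, SE 0.10, adjusted p = 0.0604) and Galnt7 (0.35, SE 0.10, adjusted p = 0.0794), which preferentially extends peptides that already carry GalNAc, did not pass. Galnt2, a broadly used initiator like Galnt1, read 8.51, 8.36 and 8.51 in knockout-labelled arrays and 8.15, 8.05 and 8.17 in wild type arrays (0.34, SE 0.10, adjusted p = 0.104). All 3 genes passed with the filter at the 50th percentile (adjusted p = 0.0268 for Galnt4, 0.0349 for Galnt7 and 0.049 for Galnt2), Galnt4 also with that at the 25th (0.0488), and Galnt7 and Galnt2 also with trend and robust fitting (0.0328 and 0.0353). None of the 3 passed after quantile normalization or median centring. Galnt4 then differed by 0.20 and 0.33 (adjusted p = 0.349 and 0.113), and Galnt7 by 0.30 under both (0.127 and 0.147). In these 3 genes every knockout-labelled value was above every wild type value. The lowest difference among Galnt genes without a call was that of Galnt18 (-0.32, adjusted p = 0.262). Of the 19 Galnt genes 9 were below the guide in both groups.

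Core 2 branching of O-glycans is the step that T cells switch on with activation, mainly through Gcnt1. Gcnt1 read 2.64, 3.14 and 3.13 in knockout-labelled arrays and 2.91, 3.12 and 3.43 in wild type arrays. All 6 values were below the guide, and the difference was -0.18 (SE 0.17, adjusted p = 0.646). Gcnt4, another core 2 enzyme, read 3.97, 4.37 and 4.32 in knockout-labelled arrays and 3.59, 3.54 and 3.62 in wild type arrays. The wild type values were below the guide and the knockout-labelled ones just above it, so the size of the rise (0.64, SE 0.12, adjusted p = 0.0171) is uncertain. It was lost without knockout replicate 2 or 3 or wild type replicate 3 (adjusted p = 0.0789, 0.0857 and 0.0535). Gcnt2, Gcnt3 and Gcnt7 did not pass.

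**Figure D2:**
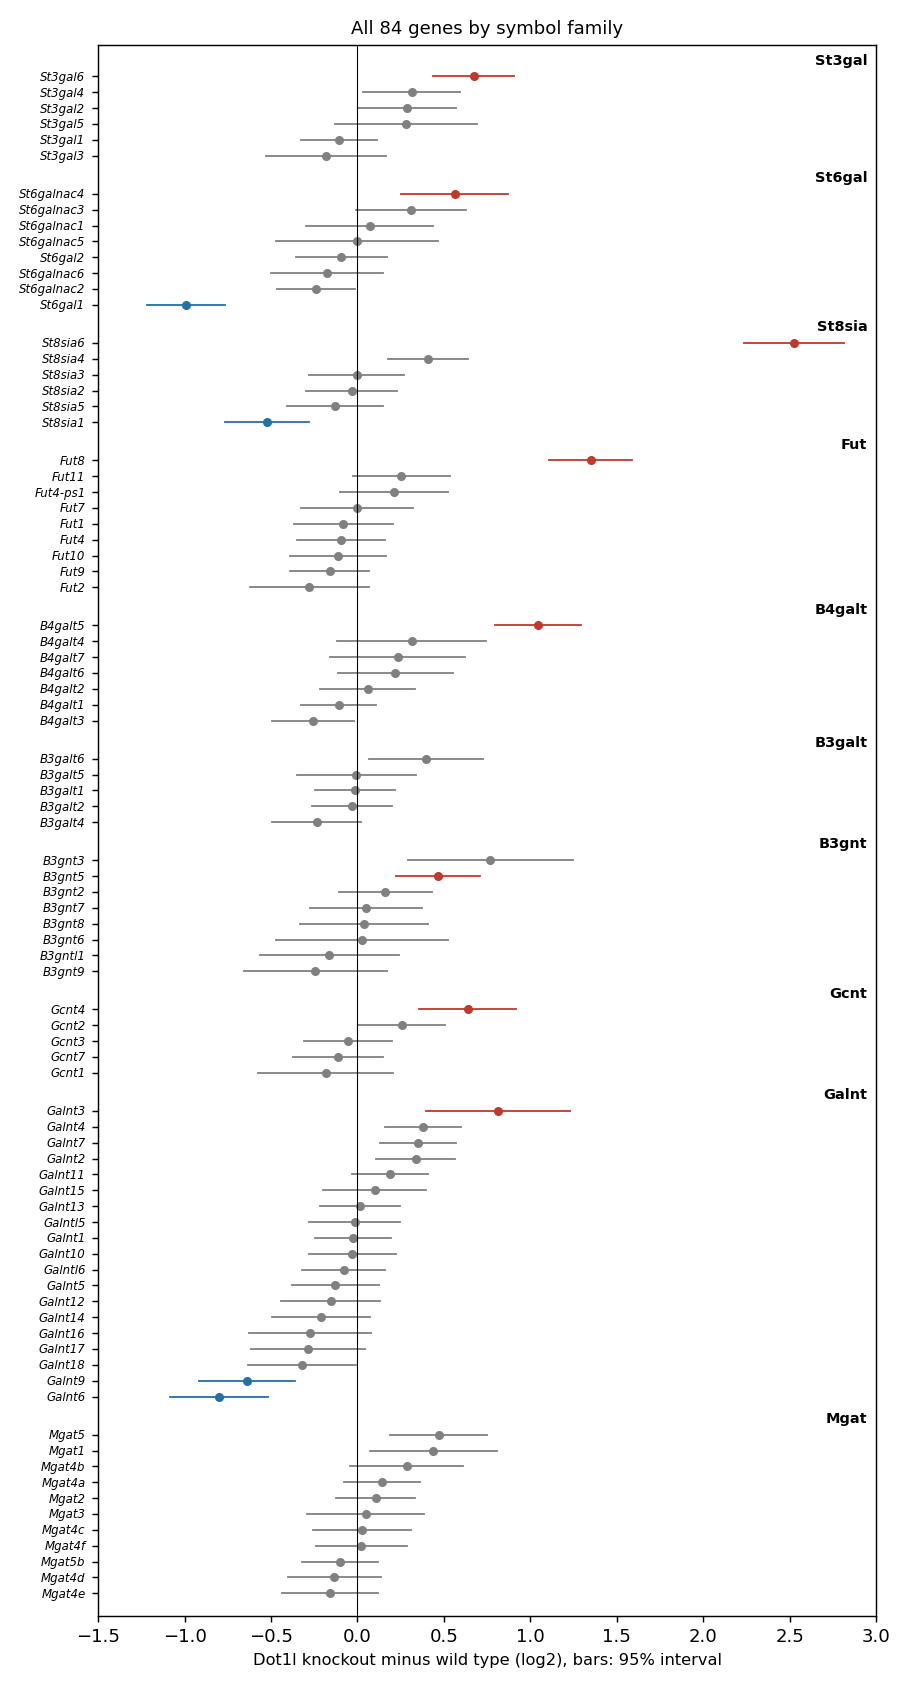
Difference between knockout-labelled and wild type arrays (log2, x axis) for each of the 84 genes (y axis), grouped by symbol, with points for the estimate and bars for the 95% interval. Red genes passed as higher, blue genes as lower and grey genes did not pass. St8sia6 stands furthest to the right at 2.53, St6gal1 furthest to the left at -0.99, and no B3galt or Mgat gene is coloured.

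N-glycan branching enzymes had no call among 11 Mgat genes, 5 of which were below the guide in both groups, and 2 of which had an unadjusted p under 0.05 in limma. The count was 0 as reported, and 1 with a filter at the 50th percentile of level or with trend and robust fitting. That gene was Mgat5, which adds the beta1,6 branch that carries galectin ligands and restrains T cell receptor signalling. It read 7.50, 7.66 and 7.61 in knockout-labelled arrays and 7.19, 6.89 and 7.28 in wild type arrays. The groups did not overlap, and the difference of 0.47 (SE 0.12, 95% interval 0.19 to 0.75) had an adjusted p of 0.0647, or 0.0349 and 0.0293 under those alternatives. Those were 2 of the 14 alternatives fitted, and Mgat5 did not pass in the rest. Across the 14 its difference ran from 0.085 to 0.55, with 0.40 after quantile normalization and 0.42 after median centring. Mgat1, which opens the branching pathway, read 4.72, 4.82 and 5.01 in knockout-labelled arrays and 4.05, 4.66 and 4.52 in wild type arrays (0.44, SE 0.16, adjusted p = 0.186). Mgat2, which follows Mgat1, read 8.90, 8.97 and 8.91 in knockout-labelled arrays and 8.94, 8.79 and 8.73 in wild type arrays (0.11, SE 0.10, adjusted p = 0.659), and Mgat3, the bisecting enzyme, differed by 0.046 (SE 0.15, adjusted p = 0.915). Both had overlapping groups. Mgat4a differed by 0.14 (SE 0.10, 95% interval -0.077 to 0.36, adjusted p = 0.511).

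Of the 84 members 39 were below the guide in both groups. None of these 39 passed in limma, and 2 had an unadjusted p under 0.05. Each of the 12 that passed was above the guide in both groups, apart from Gcnt4, which was above it in knockout-labelled arrays and below it in wild type arrays. RMA compresses differences of dim probe sets, so for the 39 a small difference does not show equal expression. The 72 genes that did not pass had differences between -0.32 and 0.77.

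Genes of sugar supply, trimming, sulfation and glycan carriers were listed beside the transferases, in 5 lists with 55 genes measured. Of the 55, 6 passed, all higher in knockout-labelled arrays (10.9%, against 5.5% of all genes). Only 9 of the 55 were below the guide in both groups, against 10394 of the 22180 genes. Among those 10394 genes 47 passed. The lists thus held fewer dim genes, so the shares are not like for like. The supply lists of sialic acid, fucose, and galactose and hexosamine had 0, 1 and 0 calls. Chst2, which sulfates N-acetylglucosamine on L-selectin ligands, read 6.96, 7.19 and 6.96 in knockout-labelled arrays and 5.77, 5.61 and 5.68 in wild type arrays. The groups lay over 1 log2 unit apart (1.35, SE 0.11, a 2.55-fold rise, adjusted p = 0.000147). The Golgi mannosidase genes Man1c1 (1.08, SE 0.20, adjusted p = 0.0145) and Man2a1 (0.41, SE 0.10, adjusted p = 0.0367) and the tyrosine sulfotransferase gene Tpst1 (0.48, SE 0.12, adjusted p = 0.0498) were the others of that list of 17. Man1c1 lost its call without knockout replicate 1 or 3, and Man2a1 and Tpst1 kept theirs in 1 of the 6 fits that left out an array. Man2a1 and Tpst1 also lost theirs after quantile normalization (adjusted p = 0.071 and 0.256) and after median centring (0.0767 and 0.0958). Among 7 fucose genes the Golgi GDP-fucose transporter Slc35c1 read 6.39, 6.41 and 6.49 in knockout-labelled arrays and 5.71, 5.82 and 5.96 in wild type arrays (0.60, SE 0.11, adjusted p = 0.0108). It passed in 5 of the 6 fits, not without knockout replicate 3 (adjusted p = 0.0598). It also passed after median centring (adjusted p = 0.0168), but not after quantile normalization (0.0525). Of 11 carrier genes the hyaluronan receptor gene Cd44, a mark of antigen-experienced T cells, read 7.07, 6.95 and 6.83 in knockout-labelled arrays and 6.13, 6.18 and 6.23 in wild type arrays (0.77, SE 0.10, adjusted p = 0.00266).

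The sialic acid supply list had no call among 13 genes. Its smallest p was that of Cmah, which turns CMP-N-acetylneuraminic acid into the glycolyl form. Cmah read 9.78, 9.96 and 9.79 in knockout-labelled arrays and 10.63, 10.16 and 10.26 in wild type arrays (-0.50, SE 0.14, adjusted p = 0.0723, or 0.0427 without wild type replicate 2). The galactose and hexosamine list had no call among 7 genes, and its smallest p was that of Gfpt1, the entry enzyme of hexosamine synthesis (0.36, SE 0.10, adjusted p = 0.0685). The medians of the 5 lists ran from -0.072 for the carriers to 0.23 for galactose and hexosamine supply.

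**Figure D3:**
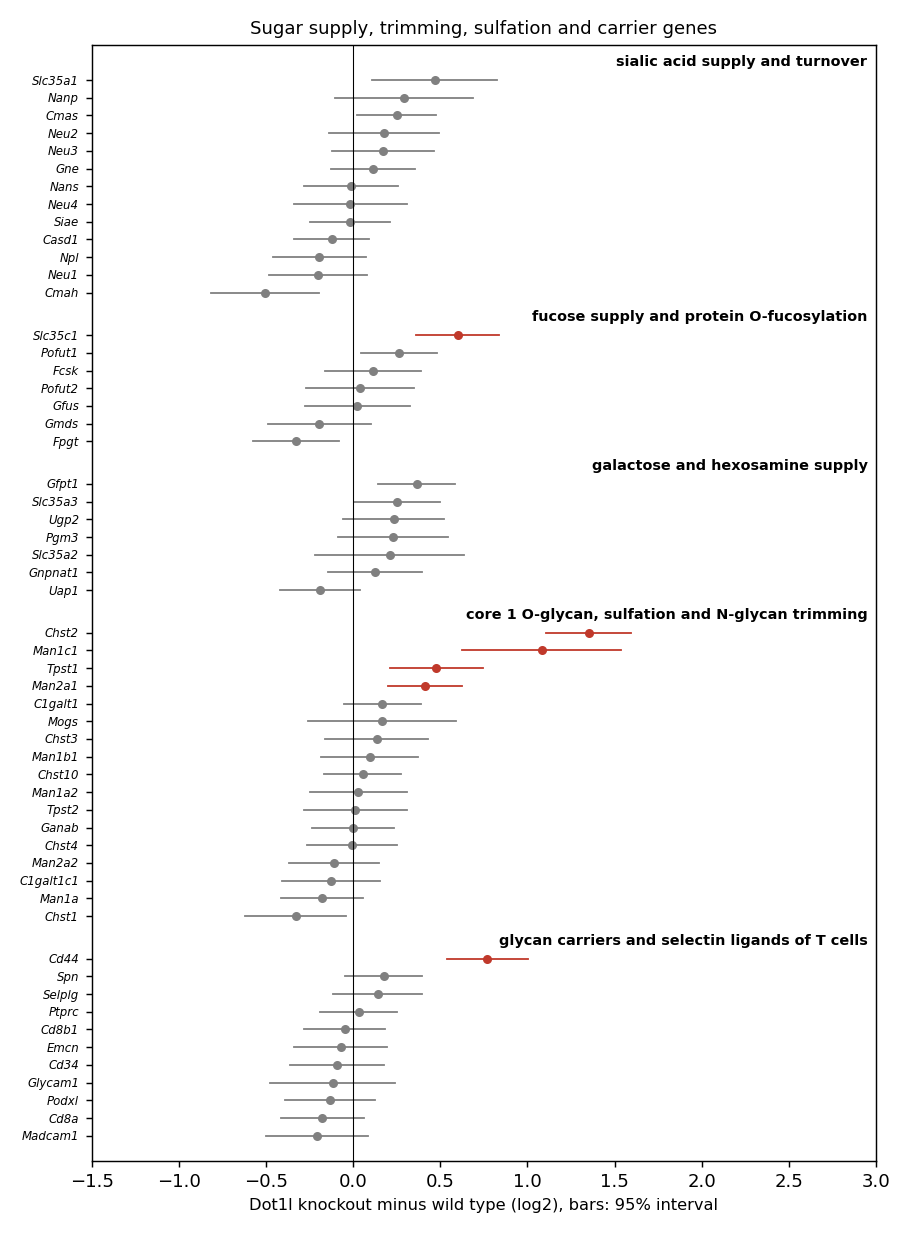
Difference between knockout-labelled and wild type arrays (log2, x axis) for 55 genes of sugar supply, trimming, sulfation and glycan carriers (y axis), with points for the estimate and bars for the 95% interval. The 6 red genes passed as higher, none passed as lower, and Chst2 stands furthest right at 1.35.

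Markers of other cells that a magnetic isolation can leave behind also differed between these arrays. Of 8 NK cell genes 4 were higher, with summed linear levels of 3282 to 3584 in knockout-labelled arrays and 2290 to 2446 in wild type arrays, and memory CD8 T cells share some of them. Without Nkg7, the most abundant of the 8, the sums were 1465 to 1656 in knockout-labelled and 1027 to 1193 in wild type arrays. Of 10 dendritic cell genes 2 were higher (Itgax and Bst2), with a sum of 1880 to 2444 in knockout-labelled and 1327 to 1606 in wild type arrays. Bst2, which other cells also express, made up 68.6% to 84.7% of it, and the other 9 summed to 366 to 377 in knockout-labelled and 374 to 490 in wild type arrays, while Batf3, Clec10a, Flt3, Siglech, Xcr1 and Zbtb46 were below the guide. Of 13 genes of monocytes, macrophages and neutrophils 1 was higher and 1 lower (178 to 195 in knockout-labelled and 194 to 205 in wild type arrays). The part of such cells in the differences above was not tested.

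**Figure D4:**
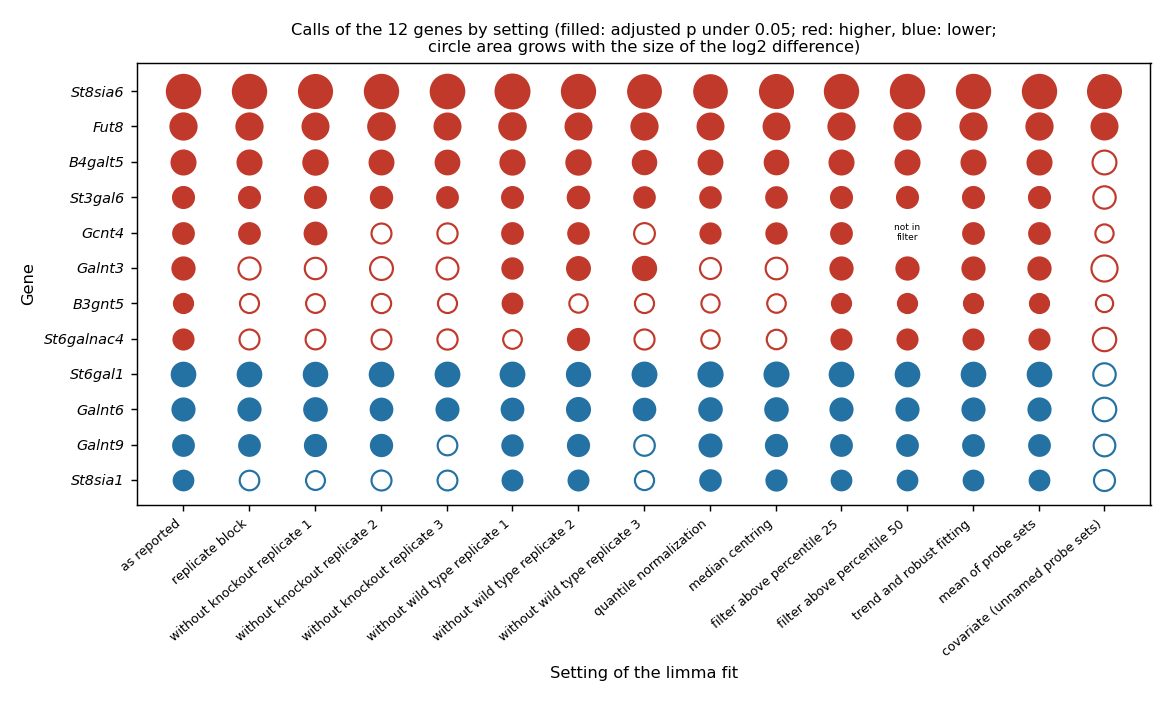
Calls of the 12 genes (y axis) under each setting of the fit (x axis), filled where the adjusted p was under 0.05, red for higher and blue for lower in knockout-labelled arrays, with circle area growing with the size of the log2 difference. St8sia6 and Fut8 are filled in every column, and 4 more genes, B4galt5, St3gal6, St6gal1 and Galnt6, are open in the last column alone.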

How the data were processed

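Gene expression was measured on 6 Affymetrix whole-transcript arrays, 3 labelled Dot1l knockout and 3 labelled wild type. The deposited table holds log2 values that the authors computed by RMA, and the submitters' processing notes name R 3.1.1. Those notes name no genome build. Arrays have no count depth, and their number limits the precision. Of 41345 probe sets, 23521 named 1 gene symbol in the platform annotation, 1814 several and 16010 none, and those with 1 symbol gave 22180 genes, using the probe set with the highest mean. All 84 members matched RefSeq by gene identifier, while promoter windows were matched for 62 of them. Another 5 probe sets named a member together with another gene and were not used. Genes were fitted with limma 3.58.1 in R 4.3.3 (lmFit, eBayes, no covariate), which was tested on simulated data. Linear levels summed for markers are 2 raised to the log2 values. Members, gene lists, motifs and rules were chosen with earlier results of these data known. Named genes were those that passed, the 5 members next in p, 21 members known from lymphocytes, and pathway genes that passed or led their list. Members named without a call beyond these (such as St3gal5, B4galt3, B3galt6, Galnt2 and Mgat2) were chosen after their values were seen. Marker lists held 91 genes, 79 measured. Plasma cells (0 of 7 passed), erythroid cells (0 of 3), platelets (1 of 6 higher), CD4 helper and regulatory T cells (2 higher and 1 lower of 7) and stroma (0 of 9) are given here alone. Alternatives were a replicate block, leaving out each array, 2 rescalings, 2 level filters, trend and robust fitting, the mean of probe sets, a covariate and an adjusted p under 0.1.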

Additional observations from a re-analysis of the deposited data

How the results depend on the processing

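No member that passed changed direction in any of the 14 alternatives fitted, of which 13 included Gcnt4. Leaving out 1 array gave 4 to 8 members higher, 2 to 4 lower, 615 to 1307 of all genes, 2 to 6 pathway genes higher, 0 to 1 lower and a member median of -0.013 to 0.049. Another quantile normalization gave 5 members higher and 5 lower (the fifth was B4galt3), and 3 pathway genes higher and 1 lower. Median centring gave 5 members higher and a member median of -0.052. Members higher numbered 13 with a filter at the 50th percentile of level (1 pathway gene lower), 13 with trend and robust fitting (1 pathway gene lower) and 13 at an adjusted p under 0.1 (1 pathway gene lower). That filter drops dim members, Gcnt4 among them, and leaves each difference as it was. Its member median of 0.23 is therefore over the brighter members alone. The covariate from unnamed probe sets, known from an earlier look at these data, left 2 members higher, 0 lower, 1 pathway gene higher, 216 of all genes and a member median of 0.12. It moves with the groups, so the fit has less to tell them apart by. The replicate numbers did not pair the arrays (correlations of deviations -0.074, -0.157 and -0.074 for the same numbers), and with the replicate block 6 members were higher and 3 lower, and 912 of all genes passed. Among the named genes without a call, Dot1l, B3gnt2, B3gnt7, Fut7, Galnt1 and St6galnac6 changed sign in some alternative, and genes not named were not followed. Dim probe sets limit what can be read for 39 members.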

Other observations

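Of the 84 genes 6 had more than 1 probe set, and in a fit over all named probe sets none of these probe sets passed. The 2 probe sets of B4galt7, which adds a galactose of the proteoglycan linker, differed in sign, at 0.23 (SE 0.18, adjusted p = 0.557) for the one used and -0.21 (SE 0.17, adjusted p = 0.602) for the other. Those of Galnt1 differed by -0.026 for the one used and 0.090 for the other, both without a call. The genes that passed each had 1 probe set, so no second probe set of the array bears on them here.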
